A study of Glycine max with 8 samples.

Results

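The strongest binding sites of a soybean WOX9-like protein that were shared by seeds of 2 embryo stages are described here. They were chosen by their measured enrichment: a site had to be called in all 4 chromatin immunoprecipitation (ChIP-seq) libraries, and its best peak had to be in the top 10% of each library's peak list by fold enrichment. Of 75046 regions called in any library, 27270 were called in all 4 libraries and 1627 met this rule. The 4 libraries came from whole seeds of Glycine max, cultivar Williams 82, with 2 ChIP libraries from seeds of 1.7 to 2.1 mm with heart-stage embryos and 2 from seeds of 1.0 to 1.5 mm with globular embryos. All 4 used a polyclonal antibody raised in rabbit to a WOX9-like peptide, and 4 input libraries, 2 of each stage, were not analysed here. No label says that the replicates of a stage were taken from different plants, so differences between them may be technical only. Whole seeds hold the embryo, the endosperm and the seed coat, and a site cannot be placed in one of these tissues.

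WOX proteins are plant homeodomain transcription factors, and in Arabidopsis WOX9 is known for keeping cells dividing in the early embryo and in meristems. Chromatin immunoprecipitation recovers the DNA fragments bound by the antibody's target, and reads pile up over a bound site as a peak whose highest point, the summit, lies near the place of contact. Homeodomain proteins contact short DNA motifs, so a genome holds many more possible contacts than any list of sites. Fold enrichment here is the authors' value from their peak caller, the reads at the summit over the background given to that summit.

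The 4 lists held 60537 peaks in heart replicate 1, 50579 in heart replicate 2, 46027 in globular replicate 1 and 44581 in globular replicate 2. To be in the top 10% a peak needed a fold of 12.8 in heart replicate 1, 11.8 in heart replicate 2, 12.0012 in globular replicate 1 and 7.84 in globular replicate 2. These folds are not on one scale across libraries, so each was read as a rank percentile in its own list, where 0 is the strongest peak. The name of the calling run inside the globular replicate 2 list holds the words BR1 and Input, which no label explains, so counts, widths, summit distances, positions and spacing were also computed with each library left out. Without globular replicate 2, 1735 sites met the rule in the other 3 libraries, and the outer share differed by -0.196 points from that of the other regions. The files give no read totals, so the depth behind a peak is known only as far as its fold and p imply it.

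The 1627 strongest shared sites had a median fold of 21.9 in heart replicate 1 (12.8 to 44.7), 19.1 in heart replicate 2 (11.8 to 43.2), 14.8 in globular replicate 1 (12.0012 to 53.0) and 12.2 in globular replicate 2 (7.84 to 29.5). Within the top 10%, they stood at a median rank percentile of 1.75 and 2.06 in heart replicates 1 and 2, and of 5.11 and 2.35 in globular replicates 1 and 2. The rule used these same ranks, so no site could stand below the top 10% of any list, and the medians are a description only. By that description the sites stood nearer the top in 3 lists than in globular replicate 1. Globular replicate 1 was the library in which a site ranked lowest for 1113 of the 1627 sites (68.4%). Only 88 sites were in the top 1% of every list.

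Globular replicate 1 also set how many sites passed. The sites made up 5.97% of the regions called in all 4 libraries, a share from which nothing is read, since the rule used these folds. A larger number, 1759 regions, was in the top 10% of both heart libraries and of globular replicate 2 but not of globular replicate 1, where their median rank percentile was 17.7. By contrast, 106 regions missed in globular replicate 2 alone, 51 in heart replicate 2 alone and 13 in heart replicate 1 alone. Another 950 regions were in the top 10% of globular replicate 1 and of no other list, with median percentiles of 59.6 and 71.6 in heart replicates 1 and 2 and of 33.2 in globular replicate 2. The plot of library combinations shows these groups side by side.

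**Figure D1:**
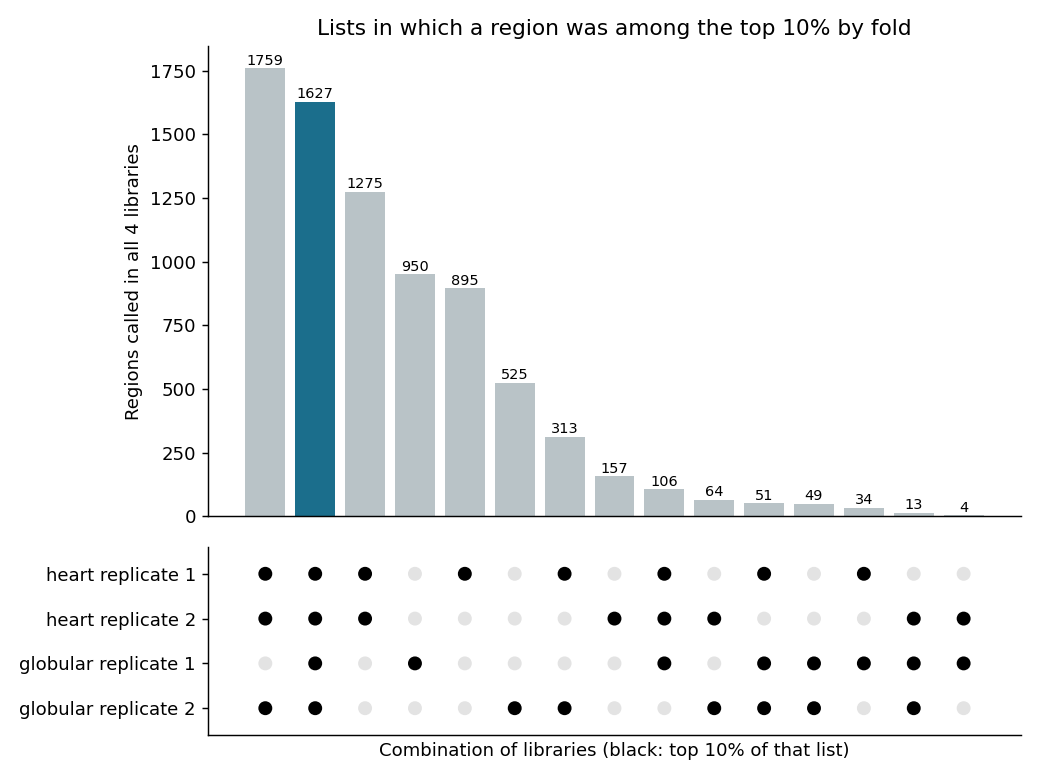
Regions called in all 4 libraries, counted by the lists in which they were among the top 10% by fold; black dots mark those lists, and regions strong in no list are left out. The strongest shared sites (1627, blue) are outnumbered by the 1759 regions that were strong in every list but that of globular replicate 1.

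Strength in 3 libraries was read against the library left out, whose folds took no part in the choice. The regions were those joined over all 4 libraries, so the library left out still had a part in the joining. Counts here can therefore differ slightly from those with a library left out throughout, as with 1733 here and 1735 above for globular replicate 2. Regions in the top 10% of the other 3 lists were again in the top 10% of heart replicate 1 in 99.2% of cases (1627 of 1640), against a background of 22.0% for all regions called in those 3 libraries. Read in heart replicate 2, the share was 97.0% (1627 of 1678), against a background of 17.2%. In globular replicate 1 it was 48.1% (1627 of 3386), against 8.29%, and in globular replicate 2 it was 93.9% (1627 of 1733), against 15.2%. Only 2834 of all regions called in the other 3 libraries were strong in globular replicate 1, which capped the share of the 3386. The share in the library left out was thus above its background for each of the 4 libraries, and it was lowest in globular replicate 1. All 4 shares count the same 1627 sites, so they differ only by the set sizes. They restate the counts of regions that missed in a single list and are no separate support. Every region chosen in 3 libraries had a peak in the library left out, whereas of all regions called in 3 libraries 98.8%, 93.5%, 79.7% and 94.0% had a peak in heart replicate 1, heart replicate 2, globular replicate 1 and globular replicate 2. In globular replicate 1, where the chosen regions had a median percentile of 10.4, 30 of the 3386 (0.886%) had a percentile above 50.

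Across stages, the share was lower when read in the globular libraries, and of the single libraries it was lowest in globular replicate 1. Of 1741 regions in the top 10% of both globular lists, 93.5% were in the top 10% of both heart lists, against a background of 14.5% of the regions called in both globular libraries. Of 4773 regions in the top 10% of both heart lists, 34.1% were in the top 10% of both globular lists, against a background of 3.85%, although 4767 of them (99.9%) were called in both globular libraries. Each library of the other stage was also read alone, a reading added after the data were seen. In globular replicate 2 alone, 3386 of the 4773 (70.9%) were in the top 10%, against a background of 9.73%. In globular replicate 1 alone, 1733 (36.3%) were, against 6.27%. The regions strong in both globular lists gave closer values in the 2 heart libraries, 96.4% in heart replicate 1 and 94.2% in heart replicate 2, against backgrounds of 18.4% and 15.2%. The lists differ in length, so their top 10% hold different numbers of peaks. Both directions count the same 1627 regions, so the difference between 93.5% and 34.1% is that of the set sizes, 1741 and 4773. Only 1740 of the regions called in both heart libraries were strong in both globular lists, which capped the share of the 4773. The single readings were capped too. Of the regions called in both heart libraries, 2837 were strong in globular replicate 1 and 4401 in globular replicate 2, so the cap was lower in globular replicate 1. No test over libraries is given, because an exact permutation test of 2 against 2 libraries cannot reach a p of 0.05.

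Among the strongest shared sites themselves, the order of strength was close between the heart libraries and looser elsewhere. Spearman's correlation of fold over the 1627 sites was 0.91 between the heart libraries and 0.51 between the globular libraries. It was 0.62 for either heart library with globular replicate 2, and 0.49 and 0.47 for heart replicates 1 and 2 with globular replicate 1. Over all 27270 regions called in all 4 libraries the values were 0.95 within the heart stage, 0.66 within the globular stage, 0.77 for either heart library with globular replicate 2 and 0.52 for either with globular replicate 1. The range of fold is narrowed by the choice of the sites, and sites of the same libraries share their depth and background, so no p is given.

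The backgrounds worked back from the folds differed between libraries, and stage cannot be told apart here from the calling run of each library. If the peak caller MACS2 was used with its published formulas, the pileup (reads over the summit) and the background set against it can be worked back from a peak's fold and p. At the strongest shared sites 90.6% of the 1593 heart replicate 1 peaks and 89.4% of the 1598 heart replicate 2 peaks examined stood on a single flat background of 6.36 and 7.40 reads, with a median pileup of 161 and 159.3 scaled reads. The share on the flat background was much the same in the other regions, at 90.4% in heart replicate 1 and 90.9% in heart replicate 2. In the globular libraries the background varied from site to site. It had a median of 4.90 (quartiles 4.60 and 5.52) reads under a median pileup of 92 in globular replicate 1, and of 18.4 (16.6 and 19.98) under 231 in globular replicate 2. These medians cover 1623 of the 1627 sites in globular replicate 1 and 1516 in globular replicate 2. Peaks at or above 290 in −log10 p were skipped, so the strongest peaks by p are not in them. At the 1759 regions that missed only in globular replicate 1, that library had a median pileup of 63 over a background of 5.68, between the 92 over 4.90 of the strongest shared sites and the 35 over 5.20 of the other regions of all 4 libraries. Whether the background took part in these ranks was not tested.

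Positions are given counted from 1, and the genome build of the files is not named in the sources used here. The first site by its worst percentile over the 4 libraries lies on chromosome 18 from 57421110 to 57425436. It spans 4327 bp, and its summits in the 4 libraries fall within 9 bp of each other, from 57421768 to 57421777. It had the highest fold of heart replicate 2, globular replicate 1 and globular replicate 2. In heart replicate 1 it came next after the third site, which lies on the same chromosome from 57415626 to 57416657 with summits within 18 bp. On chromosome 13, the second site (14062569 to 14063860) is 1292 bp wide with summits within 22 bp, and the fourth (23039803 to 23041436) is 1634 bp wide with summits within 17 bp. The fourth site has a neighbouring region called in all 4 libraries 93 bp away, and the second has one 170 bp away.

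The 11th to 20th sites lay on chromosomes 5, 17, 19, 20, 14, 15, 9, 12 and 16, with 2 on chromosome 15. The 11th, on chromosome 5 from 3353650 to 3355393, had a fold of 34.8 and 28.5 in heart replicates 1 and 2 and of 27.3 and 19.6 in globular replicates 1 and 2. The 13th, on chromosome 19 from 44673311 to 44674512, had 35.6 and 33.0 in the heart libraries and 26.6 and 19.5 in the globular libraries. The 20th, on chromosome 16 from 36142841 to 36144779, had 32.0 and 29.2 in the heart libraries and 25.4 and 22.6 in the globular libraries. The 20th was the exception in summit position, since its summits lay up to 900 bp apart although each library had a single peak there.

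All of the first 20 were within the top 0.313% of every list. They lay on 15 chromosomes, were 665 to 5406 bp wide (median 1651), and 19 of the 20 had another region of all 4 libraries within 10000 bp, with a median gap of 623.5 bp.

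At the edge of the rule, sites just inside and just outside hardly differed. The last site inside, on chromosome 17 from 8982190 to 8983853, had a fold of 12.0012 in globular replicate 1, and the first outside, on chromosome 8 from 8671604 to 8673070, had 12.0011 there. The site outside was the stronger one elsewhere, with 24.2 and 22.8 in heart replicates 1 and 2 and 14.5 in globular replicate 2, against 20.6 and 17.4 in the heart libraries and 10.6 in globular replicate 2 for the site inside. The next outside, on chromosome 1 (12789513 to 12790099) and chromosome 2 (44162286 to 44163136), both missed by a fold of 11.97 in globular replicate 1. Of the next inside, the site on chromosome 17 (7324351 to 7325019) was held by globular replicate 1, with 12.0035. The one on chromosome 14 (359613 to 361296) was held by globular replicate 2, with 7.84.

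Within the top 10%, the sites with the widest gap in rank between the stages were picked from the same values that chose the sites, in lists of different length, and are given as a description. On chromosome 6 from 352721 to 354192 the mean rank percentile was 1.32 in the heart libraries and 8.86 in the globular libraries. On chromosome 5 (34093280 to 34093990) the means were 1.31 in heart and 8.57 in globular libraries, and on chromosome 4 (50467598 to 50469318) they were 1.85 in heart and 9.07 in globular libraries. In the other direction, a site on chromosome 7 (10917475 to 10918593) had a mean of 8.36 in the heart libraries and 2.58 in the globular libraries. A site on chromosome 6 (10684444 to 10686527) had 7.09 in heart and 1.83 in globular libraries, and one on chromosome 15 (17082977 to 17083647) had 8.58 in heart and 3.64 in globular libraries.

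The strongest shared sites were wide. The joined region had a median width of 1233 bp (quartiles 945.5 and 1685.5), against 737 bp (581 and 1001) for the 25643 other regions called in all 4 libraries. The median width of the best peak was 1124 and 981 bp in heart replicates 1 and 2 and 807 and 986 bp in globular replicates 1 and 2. In the other regions it was 653 and 559 bp in the heart libraries and 456 and 552 bp in the globular libraries. Width and fold come from the same peaks, so these values are a description. In the plot of widths the lower quartile of the strongest sites lies above the median of the other regions in every library. The regions of all 4 libraries were parted by worst percentile into 10 parts of 2727. The median width was 1166 bp in the strongest part, then 964 and 863 bp in the parts that followed. It was 643 bp in the weakest, with the lowest value, 637 bp, in the part before it. At the 1759 regions that missed only in globular replicate 1 it was 1065 bp, and at the 19448 regions strong in no list 685 bp. Greater width thus went with strength and was not particular to the strongest shared sites. With each library left out in turn, the median width of the joined region was 1102 to 1192 bp for the strongest sites and 658 to 704 bp for the others.

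**Figure D2:**
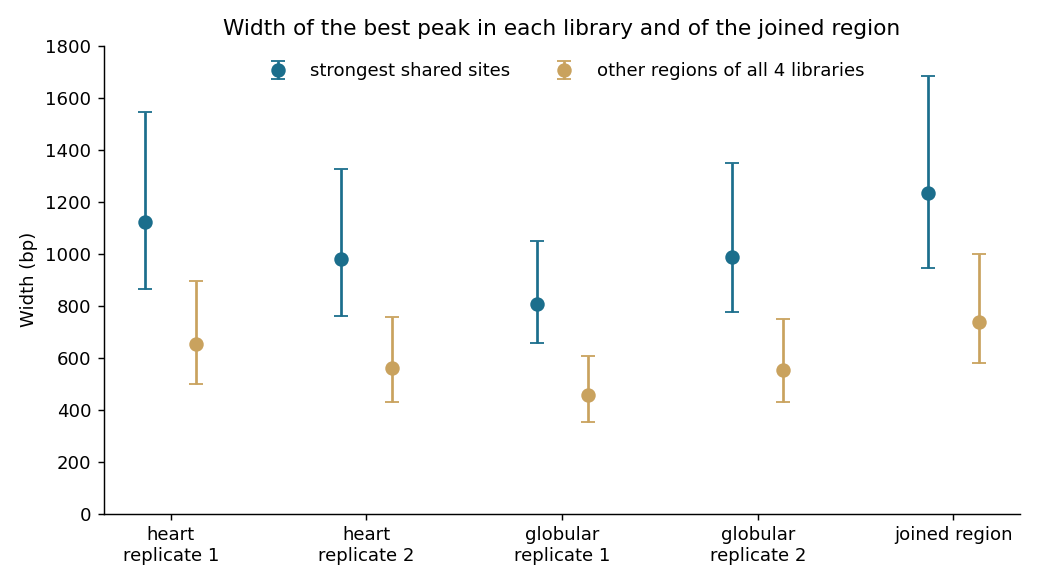
Width in bp of the best peak in each library and of the joined region, with the median (point) and quartiles (bars), for the 1627 strongest shared sites and the 25643 other regions called in all 4 libraries. The strongest sites are wider in every library, with a median of 1233 bp against 737 bp for the joined region.

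Many of the strongest shared sites were wide, and many held several peaks of one library. Of the strongest shared sites 253 (15.6%) spanned more than 2000 bp, against 705 (2.75%) of the other regions, and 57 (3.50%) spanned more than 3000 bp, against 178 (0.694%). In 385 sites (23.7%) at least 1 library had 2 or more peaks, against 3245 (12.7%) of the other regions. This held for 201 of the 253 sites over 2000 bp (79.4%), against 654 of the 705 other regions of that width (92.8%). Over all 1627 sites, those with 2 or more peaks were fewest in heart replicate 1 (95 sites, 5.84%) and most numerous in globular replicate 1 (283 sites, 17.4%). Heart replicate 2 had 230 (14.1%) and globular replicate 2 had 167 (10.3%). In the other regions the shares were 2.93% and 6.91% in heart replicates 1 and 2. They were 7.30% and 4.45% in globular replicates 1 and 2, so the libraries stood in the same order. The widest site, on chromosome 2 from 1898099 to 1908168, spans 10070 bp and holds 2 peaks in heart replicate 1, 1 in heart replicate 2, 8 in globular replicate 1 and 5 in globular replicate 2. Its best summits nevertheless lie within 31 bp. The next widest lie on chromosome 8 (13553072 to 13560359, 7288 bp) and chromosome 17 (13472640 to 13479589, 6950 bp), with best summits up to 1790 and 2738 bp apart. The narrowest, on chromosome 4 (3924134 to 3924673), chromosome 7 (8059512 to 8060058) and chromosome 11 (31766121 to 31766675), span 540, 547 and 555 bp, and each holds a single peak of each library.

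Summits of the strongest shared sites agreed closely. The 4 summits of a site lay a median of 47 bp apart from lowest to highest (quartiles 29 and 73), against 76 bp (48 and 123) in the other regions. They lay within 50 bp at 882 sites (54.2%), against 7018 (27.4%) of the other regions. By pairs, the median distance was 16 bp between the heart libraries and 24 bp between the globular libraries. Across stages it was 25 bp for either heart library with globular replicate 1 and 20 bp for either with globular replicate 2. The distances across stages were thus near that between the globular replicates, and the heart replicates lay closest. In the other regions the same medians were 28 bp within the heart stage, 39 bp within the globular stage and 33 to 42 bp across stages. With each library left out in turn, the 3 remaining summits lay a median of 34 to 39 bp apart in the strongest sites and 58 to 64 bp in the others. With all 4 libraries, the median spread was 54 bp at the 1759 regions that missed only in globular replicate 1. It was 81 bp at the 19448 regions strong in no list. By worst percentile, it was 49 bp in the strongest of 10 parts and 109 bp in the weakest. A small spread thus went with strength and was not particular to the strongest shared sites. Summits and folds come from the same peaks, so no test is given.

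**Figure D3:**
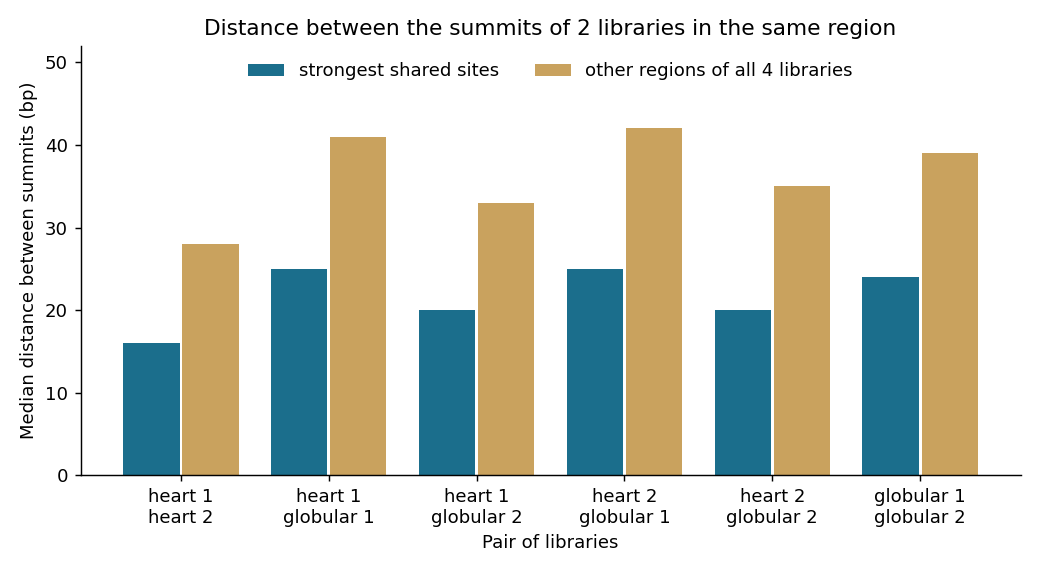
Median distance in bp between the summits of the best peaks of 2 libraries, for each of the 6 pairs, in the 1627 strongest shared sites and in the 25643 other regions called in all 4 libraries. The strongest sites have the shorter distance in each pair, from 16 bp for the heart libraries to 25 bp for pairs with globular replicate 1.

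A small group of strong sites did not have one common summit. At 66 sites (4.06%) the summits were more than 500 bp apart, against 1336 (5.21%) of the other regions, and 39 of the 66 held 2 or more peaks of a library. The farthest apart were on chromosome 11 from 3907642 to 3912902, where the best summits lay from 3907995 to 3912564, 4569 bp apart. That site held 3 peaks in each library except heart replicate 2, which had 2. In sites with a single peak of each library the median distance was 47 bp, and in sites with 2 or more peaks of a library it was also 47 bp, whereas in the other regions it was 74 bp and 106 bp.

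The strongest shared sites were found on all 20 chromosomes, from 50 on chromosome 16 to 125 on chromosome 13. Chromosome 7 held 107, chromosome 2 held 99 and chromosome 9 held 96. Per Mb the range was 1.14 on chromosome 18 to 2.73 on chromosome 13. As a share of a chromosome's regions called in all 4 libraries, they ranged from 4.10% on chromosome 8 to 7.64% on chromosome 7, with a mean of 5.95% ± 0.716 (SD, n = 20 chromosomes). The high number on chromosome 13 went with a high number of regions of all 4 libraries there (2000), of which the strongest sites were 6.25%. Another 15 sites (0.922%) lay on 8 unplaced scaffolds, 6 of them on scaffold_21, against 160 (0.624%) of the other regions.

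Along the chromosomes no difference in position from the other shared regions was detected. Of the strongest sites on chromosomes, 68.8% (1109 of 1612) lay in the outer 20% at either end, against 70.0% of the other regions. Averaged over chromosomes the share was 70.7% ± 15.0, against 71.3% ± 10.7 (SD, n = 20 chromosomes each). The difference was -0.577 points ± 6.33 (SD over chromosomes), with the strongest sites higher on 9 and lower on 11 of 20 chromosomes (p = 0.694, adjusted over 3 comparisons 0.694; two-sided permutation test that flips the sign of whole chromosomes). This p does not show that the positions were the same, and the sign of the difference changed with the ranking, the threshold and the libraries used. Single chromosomes departed from the mean. On chromosome 13 the outer share was 25.6% against 37.3%, and on chromosome 17 it was 49.5% against 65.7%. On chromosome 16 it was 84.0% against 75.9%, and on chromosome 12 it was 86.3% against 78.6%, the strongest sites first each time. In the plot of position the share of both groups is lowest near the middle, in parts 5 to 7 of 10.

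**Figure D4:**
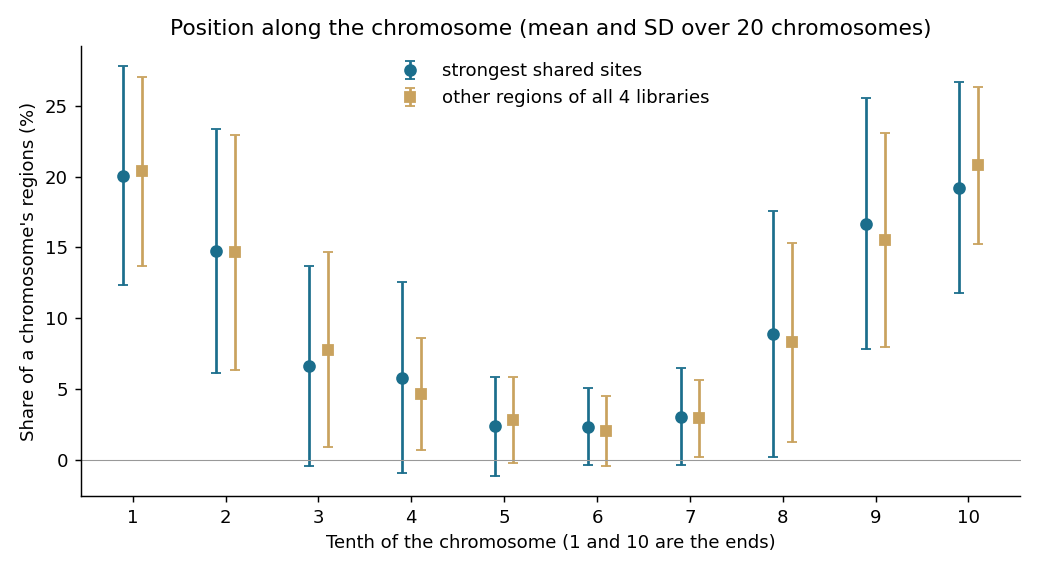
Share of a chromosome's regions in each of 10 equal parts of its length (percent; the length runs to the last base with a peak), as mean and SD over 20 chromosomes, for the strongest shared sites and the other regions called in all 4 libraries. The groups overlap in every part, at 20.1% against 20.4% in the first part and 19.2% against 20.8% in the last.

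The strongest shared sites stood closer to their neighbours. The gap from a site to the nearest other region called in all 4 libraries had a median of 1620 bp (quartiles 555 and 5023), against 2888 bp (918 and 9058) for the other regions. Averaged over chromosomes, the median gap was 1682 ± 411 bp, against 2935 ± 316 bp (SD, n = 20 chromosomes each). The difference of -1253 bp ± 459 (SD over chromosomes) had the same sign on 20 of 20 chromosomes (p = 1e-05, the smallest that 100000 resamples can give, adjusted over 3 comparisons 1.5e-05; same permutation test). It was -924 bp without globular replicate 1, -1146 bp without globular replicate 2, and -1268.5 and -1262.6 bp without heart replicates 1 and 2. The shortest chromosome medians of the strongest sites were 1153 bp on chromosome 20 and 1207 bp on chromosome 6. The longest was 2937 bp on chromosome 19, where the other regions also had one of the longest medians, 3562 bp.

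A neighbour within 10000 bp was likewise more frequent. It was present at 1406 of 1625 strongest sites (86.5%), against 76.8% of the other regions. Averaged over chromosomes the shares were 86.5% ± 4.46 and 76.5% ± 2.97, strongest sites first, a difference of 9.96 points ± 4.65 (SD over chromosomes), again with the same sign on 20 of 20 chromosomes (permutation test as before, p = 1e-05, adjusted 1.5e-05). With each library left out in turn the difference was 8.83 to 9.94 points. Such a neighbour was also present at 85.2% of the 1759 regions that missed only in globular replicate 1. It was present at 75.5% of the 19448 regions strong in no list, so the higher share was not particular to the strongest shared sites. Chromosomes, not seed samples, are the units of these tests, and the neighbours were called in the same 4 libraries as the sites.

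**Figure D5:**
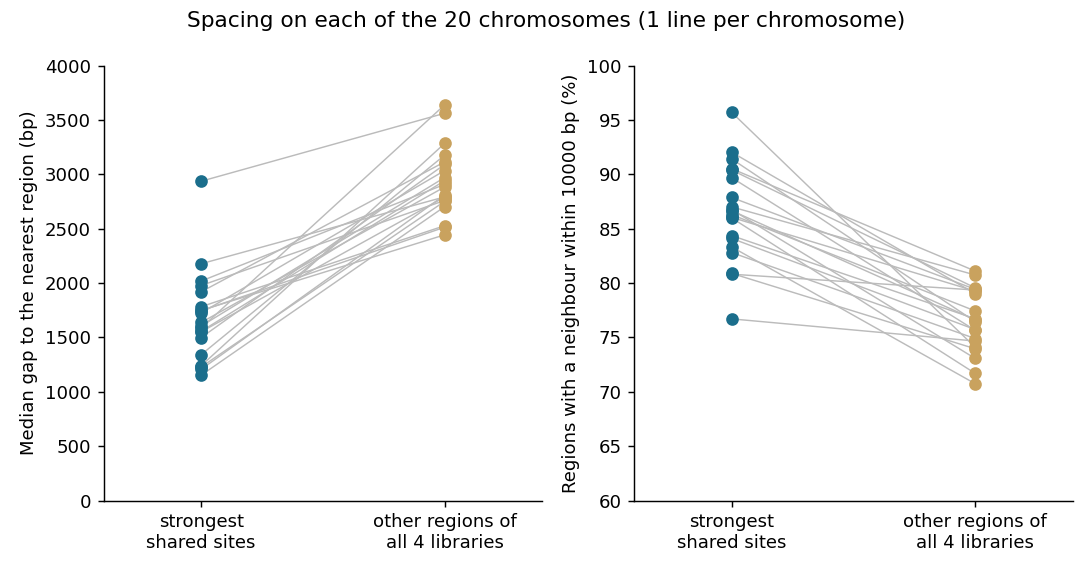
Median gap to the nearest region called in all 4 libraries (bp, left) and share of regions with such a neighbour within 10000 bp (percent, right; the axis starts at 60), for the strongest shared sites and the other regions called in all 4 libraries, with 1 line for each of 20 chromosomes. On each chromosome the strongest sites have the shorter median gap and the higher share.

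The shorter spacing was present in both parts of the chromosome and for neighbours beyond 2000 bp. In the outer part alone the median gap averaged 1558 bp, against 2757 bp (shorter on 20 of 20 chromosomes), and in the middle alone it averaged 2825 bp, against 4632 bp (shorter on 18 of 20). Wide regions reach nearer to their neighbours, and measured from centre to centre the averages were 2946 bp and 3862 bp, strongest sites first (shorter on 20 of 20). A neighbour whose centre lay 2000 to 10000 bp away was present for 78.3% of the strongest sites, against 67.3% of the other regions (higher on 20 of 20). With neighbours called in any library, the gap averaged 626 bp, against 917 bp, a difference of -290.7 bp, smaller than with neighbours of all 4 libraries. Among the regions of all 4 libraries, the median gap was 1770 bp in the strongest of the 10 parts by worst percentile and 3421 bp in the weakest. At the 1759 regions that missed only in globular replicate 1 it was 1875 bp, and at the 19448 regions that were strong in no list it was 3065 bp.

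Most neighbours were not themselves among the strongest. The nearest region was another strongest site in 170 of 1625 cases (10.5%), against 6.26% for the other regions, a difference that was not tested. Another strongest site lay within 10000 bp of 343 sites (21.1%), against 2819 of the other regions (10.99%), a difference that was also not tested. The other 1284 sites stood alone at this distance. These 343 made 160 runs, of which 142 were pairs, 14 held 3 sites, 3 held 4 and 1 held 5.

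The run of 5 lies on chromosome 9 from 1549351 to 1571768, a stretch of 22418 bp with 8 regions of all 4 libraries. Its middle site (1563469 to 1565559) was the strongest by its worst percentile, 0.96, with a fold of 24.6 and 24.98 in heart replicates 1 and 2 and of 22.6 and 24.4 in globular replicates 1 and 2. Its last site (1570315 to 1571768) was the weakest, at 9.50, with 15.3 and 12.0 in the heart libraries and 14.0 and 11.9 in the globular libraries. The run therefore joins a site near the top of each list with one near the threshold.

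Of the runs of 4, the strongest by median percentile lies on chromosome 12 from 36157522 to 36172224, with worst percentiles from 0.85 to 4.93. The next lies on chromosome 13 from 23032496 to 23051911 and holds the fourth site of all, at 0.04, beside sites at 4.49, 6.50 and 7.44. Isolated strong sites were rare: 19 (1.17%) had no region of all 4 libraries within 100000 bp, against 457 (1.78%) of the other regions. The most isolated, on chromosome 4 from 28938106 to 28939019, stood 728446 bp from the nearest one. Its fold was 21.1 and 21.04 in heart replicates 1 and 2 and 12.9 and 12.03 in globular replicates 1 and 2, so it ranked in the top 10% of each list without a close neighbour.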

How the data were processed

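ChIP-seq peak lists of 4 libraries were used, each called on a single library. The tools named, per the submitters' processing notes, are MACS2, Bowtie 0.12.7 and SAMtools 0.1.18. The sources used here give no settings, build, controls or treatment of duplicate reads. Each deposited list is in narrowPeak layout, with the fold as a ratio, p and q as −log10 values, and a score equal to 10 times −log10 q without its decimals.

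Peaks of different libraries overlapping by at least 50% of the shorter were joined, and connected peaks made a region. The best peak of a library was its highest fold, and peaks tied at the cut were kept. Position ran to the last base with a peak. Gaps run from edge to edge, and 2 sites alone on a scaffold have none. Chromosome means were compared by flipping the signs of the differences over 20 chromosomes (100000 resamples, seed 1) and adjusted by Benjamini-Hochberg. The pileup recovery, added after the data were seen, skipped peaks at or above 290 in −log10 p and accepted a whole-number globular pileup within 0.02 reads and a flat heart background within 0.05 in −log10 p. Regions were not assigned to genes, and no sequence is shown, because no genome of the files' build was used here.

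The members, measures and lists were chosen with earlier results of these data known. The named regions followed a fixed rule: the first 20 by worst percentile, 3 on each side of the threshold, the 3 widest, narrowest and farthest-apart, 3 with the largest stage gap each way, the most isolated, and the 3 longest runs. Python 3.11.15, numpy 2.4.6, scipy 1.17.1, pandas 2.3.3 and matplotlib 3.10.9 were used, and the joining and the test were checked on simulated data. The simulated sites had a single peak in each library and a width unrelated to strength, so the check does not cover wide or split sites.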

Additional observations from a re-analysis of the deposited data

How the results depend on the processing

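Both spacing results kept their sign and stayed below 0.05 (adjusted p, permutation test) under every alternative run: the gap difference ranged from -290.7 bp (neighbours called in any library) to -1807 bp (middle of the chromosomes only, adjusted p = 0.0166) and the difference in the share with a close neighbour from 1.71 points (within 50000 bp) to 13.3 points (middle only). The alternatives by part of the chromosome, by single-peak regions, without chromosome 13 and with neighbour centres 2000 to 10000 bp away were chosen after seeing the data. The difference in outer share, -0.577 points, turned to 0.297 when ranked by −log10 p or −log10 q, 0.362 with the top 5%, 0.722 with the top 20% and 0.00986 without chromosome 13, and, leaving out a library, ran from -0.757 (heart replicate 1) to 0.679 (globular replicate 1). Its lowest adjusted p was 0.236, with the outer 10% at either end; the cause was not tested.

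The number of sites was 672 with the top 5% and 3844 with the top 20%, as the cut itself sets, and 1640 to 3386 with a library left out, the highest without globular replicate 1. Median widths were 978 bp for the strongest sites and 556 bp for the others by best peak, and 1102 to 1192 bp for the strongest sites with a library left out. The summit spread of the strongest sites was 43 bp with the top 5% and 51 bp with the top 20%, and 34 to 39 bp with a library left out, where fewer summits are compared. That of the others was 65 bp when joined by summits within 100 bp and 58 to 64 bp with a library left out.

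With the top 5%, the share again strong in the library left out was 98.1% in heart replicate 1, against a background of 10.97%. It was 42.2% in globular replicate 1, against 4.26%, and 92.6% in globular replicate 2, against 7.63%. With the top 20% the shares were 99.6%, 54.4% and 95.1% in the same order, against backgrounds of 43.0%, 16.3% and 29.98%. The backgrounds thus rose with the cut. Ranked by −log10 p, the share again strong was 99.6% in heart replicate 1 and 97.9% in heart replicate 2, against backgrounds of 22.4% and 17.5%. In globular replicate 1 it was again lowest, at 48.35% against 8.24%, and in globular replicate 2 it was 97.7%, against 15.2%. Read in both heart libraries, the share of regions strong at the globular stage was 90.4% with the top 5%, against a background of 7.22%. With the top 20% it was 91.2%, against 29.1%. Read in both globular libraries, the share of regions strong at the heart stage was 28.2% with the top 5%, against 1.64%. With the top 20% it was 39.7%, against 9.23%. No paired analysis was possible because the replicate numbers tie no library of one stage to one of the other and the stages were compared without a test. Read depth is unknown, which limits how far a rank near the threshold can be trusted.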
